A study of Mus musculus with 4 samples.

Results

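The barcodes described here carried many collagen transcripts and almost no CD3 transcripts in libraries sorted for CD8+ T cells. They were selected on at least 20 raw UMIs (unique molecular identifiers, the counted transcripts) of Col3a1, Col1a1 and Col1a2 together and at most 1 UMI of Cd3d, Cd3e and Cd3g together. Only barcodes with 1000 UMIs or more, 500 detected genes or more and no more than 10% of UMIs from mitochondrial genes entered. The rule found 201 of 37151 kept barcodes: 64 of 9405 in WT, 13 of 8410 in KO, 75 of 10538 in Young and 49 of 8798 in Aged. They are called collagen-high barcodes below.

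The 4 libraries are droplet single-cell RNA sequencing of CD45+ CD8+ cells sorted from mouse tumours of MB49, a bladder carcinoma line that came from a male mouse, with the cells of 3 mice pooled per library. WT and KO came from subcutaneous tumours in C57BL/6Slac mice of 10 to 12 weeks, either wild type or BFAR-CD8-KO, that is, deficient in BFAR in CD8+ T cells. The labels do not name the driver of that deletion. Young and Aged came from tumours in Rag1-/- mice of 8 to 10 weeks, which lack mature lymphocytes. On the day the tumour was inoculated, CD8+ T cells were injected into a vein. They came from donors of 8 weeks in the group named Young and of 18 months in the group named Aged. The strain label reads B6.129S7-Rag1tm0Mom/J for Young and B6.129S7-Rag1tm1Mom/J for Aged. Donor age therefore applies to the T cells, not to the host or the tumour. Each group is 1 library, so no difference below has a replicate check, and the 2 pairs are not compared with each other because kits and hosts differ. Young and Aged shared 145 barcode sequences and WT and KO shared 20, and no barcode was collagen-high in more than 1 library.

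Fibroblasts are the main makers of the fibrous matrix of a tissue. Type I collagen is built from chains of Col1a1 and Col1a2, type III from Col3a1 alone, and type V from Col5a1 and Col5a2 in its main form. Tumour fibroblasts are known for this matrix, for PDGF receptors and for secreted chemokines, and they can restrain T cells. Krt8 and Krt18 encode the paired keratin filaments of simple epithelia and of many carcinomas.

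The fibroblast label held for a small share of the collagen-high barcodes only. Col1a2, one of the 3 genes of the rule, split them with almost nothing in between: 177 barcodes had 0 Col1a2 UMIs, 1 had 1, and 23 had at least 4. The split at 2 UMIs was chosen after the values were seen. The 23 Col1a2+ barcodes were 14 of 64 in WT (21.9%, exact 95% binomial interval 12.5 to 34.0), 5 of 13 in KO (38.5%, 13.9 to 68.4), 0 of 75 in Young and 4 of 49 in Aged (8.16%, 2.27 to 19.6). A count of 0 in Young allows a share of up to 4%, taking 3 of 75 as the limit, or 4.80% by the exact interval. Of the 178 Col1a2- barcodes, 161 had at least 20 UMIs of Krt8, Krt18 and Krt19 together. Keratin UMIs had a median of 167 in WT, 144 in KO, 69 in Young and 85 in Aged Col1a2- barcodes. The Col1a2+ barcodes had at most 0 keratin UMIs in WT and 2 in KO. In Aged, 1 Col1a2+ barcode had 29 and the other three had 0. The libraries' shares of collagen-high barcodes can be set by the sort for CD45 and CD8, and fewer cells of a kind cannot be told apart from a stricter gate.

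**Figure D1:**
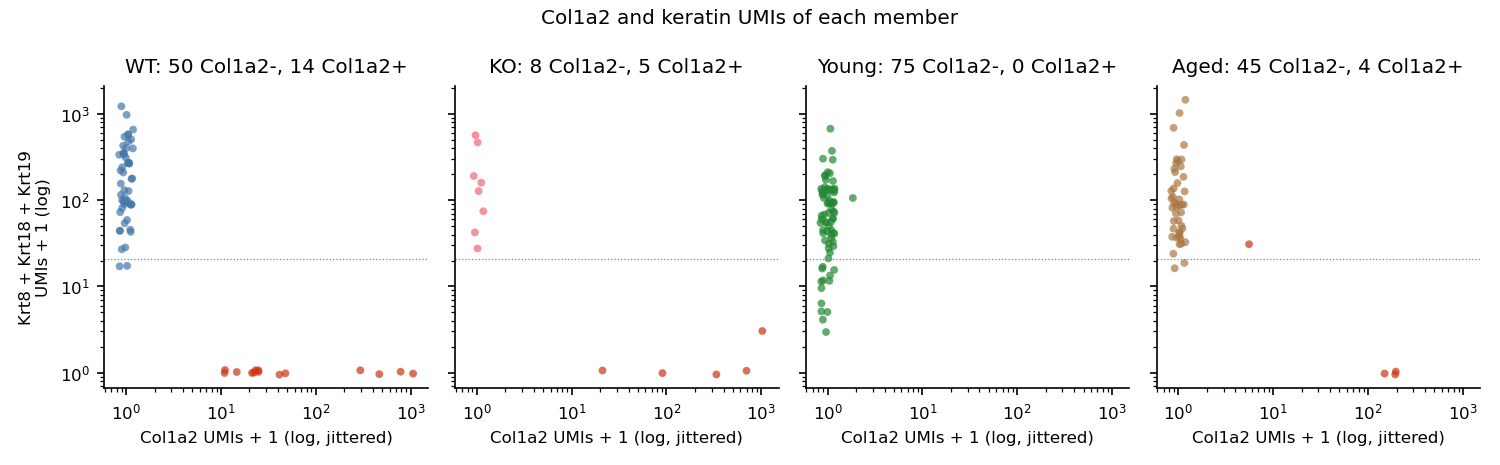
Each point is 1 collagen-high barcode, with its Col1a2 UMIs + 1 (x axis, log scale, jittered) and its Krt8, Krt18 and Krt19 UMIs + 1 (y axis, log scale) in 1 panel per library. Red points are Col1a2+, the dotted line marks 20 keratin UMIs, and the 23 red points lie apart from the 178 others except for 1 in Aged.

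Fibroblast markers differed between the subsets. The Col1a2+ barcodes had all 20 genes of the fibroblast list at 10 CPM or more (the UMIs of a gene scaled to counts per 1000000 UMIs, both summed over the barcodes of a group) in WT, KO and Aged. In the Col1a2- barcodes 6 of the 20 reached that level in WT and 7 in KO, Young and Aged. The list holds the 3 genes of the rule, and the Col1a2+ pools are small (248328, 147971 and 71092 UMIs in WT, KO and Aged), so few UMIs reach 10 CPM there. Raw UMIs of Fstl1, a secreted glycoprotein of mesenchyme that the rule did not use, were 463 in WT, 326 in KO and 264 in Aged Col1a2+ barcodes. The larger Col1a2- pools (2189234, 376879, 2019797 and 1527907 UMIs) held 0, 0, 4 and 0 in WT, KO, Young and Aged. Pdgfrb, the receptor for PDGF-B, had 133 CPM in WT, 135 in KO and 113 in Aged Col1a2+ barcodes and 0 in the Col1a2- barcodes of all 4 libraries. Postn, which encodes the matrix protein periostin, had 2843, 2386 and 591 CPM in WT, KO and Aged Col1a2+ barcodes, and 0.457 CPM in WT and 0 in KO, Young and Aged Col1a2- barcodes. Lum, a small proteoglycan of collagen fibrils, had 608, 1635 and 155 CPM against 0, 0, 1.49 and 1.31 CPM in WT, KO, Young and Aged. Other listed markers were present in Col1a2- barcodes. Dcn, which the rule did not use, had a UMI in 45 of 50 in WT, 6 of 8 in KO, 67 of 75 in Young and 43 of 45 in Aged. Sparc had a UMI in every Col1a2- barcode. Most of the list still stayed below 10 CPM there. The 178 Col1a2- barcodes thus go against the name tumour fibroblasts and are named by their genes here. Of the 22 listed tumour or epithelial markers, 11, 6, 9 and 10 reached 10 CPM in the WT, KO, Young and Aged Col1a2- barcodes, and Krt5, Upk2 and, outside WT, Krt20 were at 0.

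Sorted markers were nearly absent. Ptprc, which encodes CD45, had 0 UMIs in 186 of the 201 barcodes, and Cd8a and Cd8b1 together had 0 UMIs in 179. The summed level of the 16 CD8 T cell markers was 146 CPM in WT, 104 in KO, 121 in Young and 228 in Aged Col1a2- barcodes. No collagen-high barcode had 20 UMIs of the macrophage genes Lyz2, C1qa, C1qb and C1qc, and the most was 5. Xist, made from the inactive X chromosome of female cells, had 1070 CPM in WT and 1263 in KO barcodes with CD3. Its level was 491 in WT and 629 in KO Col1a2+ barcodes, and 2.28 and 0 CPM in the Col1a2- ones. In Aged all 4 Col1a2+ barcodes had 0 Xist UMIs, which allows up to 42.2 CPM in that pool. The Y-linked gene Ddx3y had 2 UMIs in 1 of them and 1 UMI in another. In WT and KO, Ddx3y had a UMI in 0 of 14 and 0 of 5 Col1a2+ barcodes. Among Col1a2- barcodes, it had a UMI in 7 of 50 in WT, 0 of 8 in KO, 25 of 75 in Young and 15 of 45 in Aged. Xist had a UMI in 0 of 75 Young and 1 of 45 Aged Col1a2- barcodes. Where these barcodes came from was not tested. A further 90 barcodes passed the collagen minimum but had 2 or more CD3 UMIs, 51 of them in WT, and 24 of these 90 had Col1a2 UMIs of at least 2.

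Depth differed as well. Median UMI totals of the collagen-high barcodes were 33370.5 in WT, 38191 in KO, 25326 in Young and 25557 in Aged, against 6350, 6823, 4444 and 5666 in the other kept barcodes. A fixed minimum of 20 UMIs is easier to reach in a deep barcode, and collagen was 0.115% of the UMIs of the median Col1a2- barcode in WT and 0.157% in Young. Within 5 UMIs of the threshold, 9, 0, 12 and 12 barcodes in WT, KO, Young and Aged had 15 to 19 collagen UMIs and 6, 2, 13 and 11 had 20 to 24. Their median keratin UMIs in Young were 70.5 just outside and 72 just inside, and in Aged 92 and 98. In WT they were 63 just outside and 557 just inside, where median depth was 22998 and 72439.5 UMIs. Among barcodes with CD3 and fewer than 20 collagen UMIs, a Col1a1 UMI was seen in 1.87% in WT, 0.435% in KO, 0.856% in Young and 0.218% in Aged, at median depths of 6306, 6826, 4479 and 5768 UMIs. Barcodes with CD3 that passed the collagen minimum are left out of these shares, so the amount of free RNA was not settled by them.

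The gene that separated the groups, Col1a2, lies on chromosome 6 of mm10 at 4504814 to 4541544 on the plus strand, Col1a1 on chromosome 11 at 94936224 to 94953042 and Col3a1 on chromosome 1 at 45311538 to 45349706 (GENCODE M21 genes). The 200 bases before the Col1a2 start are shown because its transcript is the missing one. They are chr6:4505418-4505617, plus strand, from RefSeq on GRCm38.p6, with CCAAT in capitals. The RefSeq start used there lies downstream of the first base that GENCODE gives the gene, so the window falls within the GENCODE span. CCAAT or its reverse ATTGG occurs in 29.3% of the 32851 promoter windows of that length. The match begins 109 bases before the start and describes letters only.
Col1a2: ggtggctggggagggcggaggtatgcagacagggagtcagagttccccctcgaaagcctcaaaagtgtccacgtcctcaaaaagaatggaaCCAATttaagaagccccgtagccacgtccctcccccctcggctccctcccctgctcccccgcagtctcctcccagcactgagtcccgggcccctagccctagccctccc
Irf1, a transcription factor induced by interferon gamma, is shown because it is among the genes with the largest difference between Aged and Young below. The 200 bases before its first start are chr11:53769814-53770013, plus strand, from the same table. Capitals mark TTCNNNGAA, the form of the gamma-activated site of interferon response genes, which reads alike on both strands and occurs in 5.49% of the windows. The match begins 90 bases before the start. The windows of Gbp2, Cxcl9, Cxcl10, Cd274 and H2-Eb1 hold no such letters, nor does the window of a second Irf1 start at chr11:53770273-53770472.
Irf1: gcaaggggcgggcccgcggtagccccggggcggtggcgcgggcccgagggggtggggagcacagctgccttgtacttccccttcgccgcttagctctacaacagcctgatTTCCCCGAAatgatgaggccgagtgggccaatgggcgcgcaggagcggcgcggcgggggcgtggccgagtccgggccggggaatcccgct

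The Col1a2- barcodes held some chains of a collagen without the partner chain. Col1a1 had 1066 CPM in WT, 793 in KO, 1316 in Young and 984 in Aged, and the lowest of the 178 barcodes had 15 Col1a1 UMIs. The rule counted Col1a1, Col1a2 and Col3a1, so their levels describe the choice. Col1a2 had 0 CPM in WT, KO and Aged and 0.495 in Young. Col5a1 had 65.8, 55.7, 149.5 and 117 CPM in WT, KO, Young and Aged, and Col5a2 had 0.457, 0, 0.99 and 0 CPM. In the Col1a2+ barcodes both partners were present: Col5a1 had 1043, 1156 and 928 CPM and Col5a2 1748, 2075 and 816 CPM in WT, KO and Aged. The rule did not use type V collagen, but the split by Col1a2, chosen after the values were seen, also set apart the barcodes with Col5a2. Whether the low Col5a2 level is independent of that split was not tested.

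Type VI collagen, a beaded filament that links cells to the matrix, had all 3 of its common chains in the Col1a2- barcodes. Col6a1 had 493, 371.5, 676 and 544.5 CPM, Col6a2 306, 154, 640 and 393 CPM, and Col6a3 137.5, 260, 232 and 275.5 CPM in WT, KO, Young and Aged. Col4a1 of the basement membrane had 217, 225.5, 356.5 and 230.4 CPM. Col18a1, the source of endostatin, had 314, 406, 357.5 and 391 CPM in the Col1a2- barcodes and 16.1 in WT, 67.6 in KO and 253 in Aged Col1a2+ barcodes. Fn1, which encodes fibronectin, had 792, 868, 859 and 922 CPM in the Col1a2- barcodes. It stood at 1957, 2676 and 1772 CPM in the Col1a2+ barcodes of WT, KO and Aged. Col18a1 was thus lower, and Col1a1, Col5a1, Col6a1 and Fn1 were higher, in Col1a2+ than in Col1a2- barcodes of WT and KO. In Aged, Col6a1 was the exception, at 450.1 against 544.5 CPM.

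**Figure D2:**
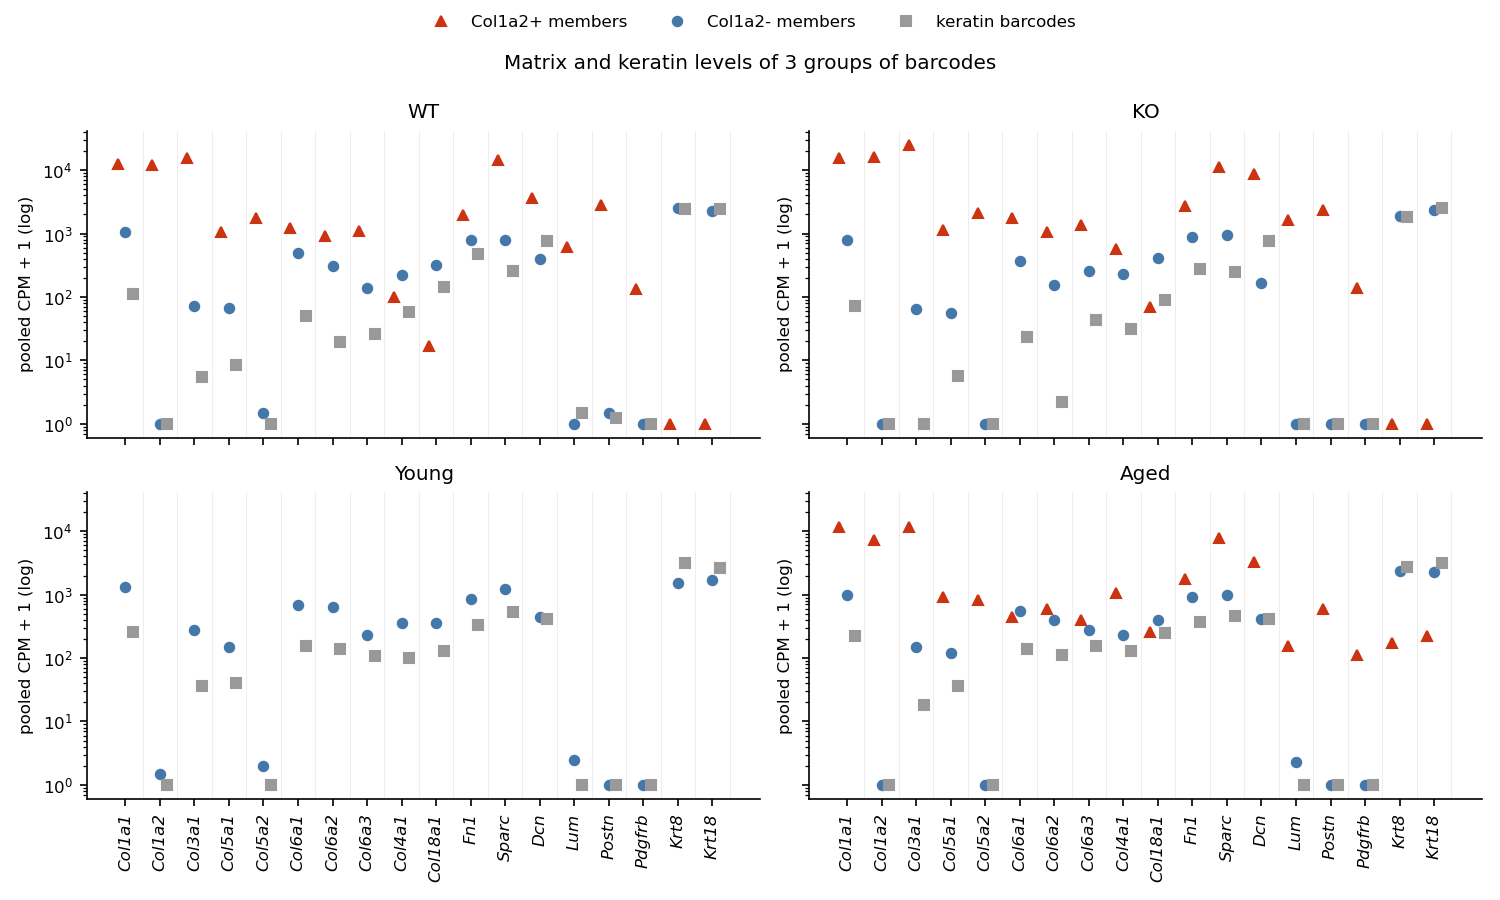
Points give the level of each gene as pooled CPM + 1 (y axis, log scale) in Col1a2+ barcodes, Col1a2- barcodes and keratin barcodes, in 1 panel per library; Young had no Col1a2+ barcode. Blue points sit near 0 for Col1a2, Col5a2, Postn and Pdgfrb and beside the grey squares for Krt8 and Krt18.

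The 23 Col1a2+ barcodes were not uniform. In WT, 4 had 38245 to 69003 UMIs and 10 had 1067 to 2686 UMIs. The shallow ones had 30215 CPM of Col3a1, 2000 CPM of Cxcl12, the ligand of CXCR4, 4843 CPM of the complement gene C3 and 0 CPM of Acta2, smooth muscle actin. The deep ones had 14473 CPM of Col3a1, 17.4 CPM of Cxcl12, 375 CPM of C3 and 1435 CPM of Acta2. A count of 0 in the pool of 18997 shallow UMIs allows up to 158 CPM. The 16 CD8 T cell markers summed to 4001 CPM in the shallow and 231 in the deep ones. That list shares Thy1 with the fibroblast list, and Thy1 had a median of 1 UMI in the shallow and 11 in the deep ones. Whether T cell RNA in these barcodes bears on the other values was not tested. Of the 5 in KO, 4 had Saa3, an acute phase protein of inflamed stroma, with 16, 408, 470 and 115 UMIs, and 3 had Pi16, a marker of progenitor fibroblasts, with 3, 20 and 11 UMIs. Of the 4 in Aged, 1 had 442 Saa3 UMIs, and 2 had 31 and 161 Pi16 UMIs. The remaining Aged barcode had 4 Col1a2 UMIs beside 29 keratin, 63 Rgs5, 6 Pdgfrb and 37 Postn UMIs. Rgs5 marks pericytes, and no other Col1a2+ barcode had an Rgs5 UMI.

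Compared with all other kept barcodes of the library, which were mostly T cells, 15% of 9109 measured genes in WT were at least 4 times higher in the collagen-high barcodes, 15.1% of 9334 in Young and 15.1% of 9415 in Aged. At least 4 times lower were 8.49% in WT, 9.88% in Young and 11.1% in Aged. Genes entered such counts only where both pools together held 50 UMIs or more and 1 pool reached 10 CPM. KO had too few collagen-high barcodes for this count. These cells were chosen by 3 of the genes, so the shares describe them and test nothing. By the lower of the Young and Aged ratios, the 20 leading genes included 8 of the matrix beside Col3a1 and Col1a1: Col6a1, Col6a2, Col5a1, Col18a1, Col4a1, Sparc, Aebp1 and the metalloprotease Mmp3. Sparc, a collagen-binding glycoprotein, had 1231 CPM in Young and 1280 in Aged collagen-high barcodes against 36.5 and 20.96 in the others.

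The other leading genes included Ecrg4, Brinp3, Orm1, Ncam1, Msln, Mmp9, Sod3, Ptn and Ptgds. Ecrg4, which encodes a secreted peptide precursor, had 493 CPM in Young and 182 in Aged against 7.35 and 2.63. Orm1, an acute phase plasma protein, had 373 and 333 CPM against 6.71 and 6.89. Ncam1, a neural cell adhesion molecule, had 274 and 229.5 CPM against 6.71 and 5.34. Msln, the mesothelial and carcinoma surface protein mesothelin, had 149.5 and 118 CPM against 3.93 and 2.67. Orm1 and Msln had 0 UMIs in the Col1a2+ barcodes of WT and KO, which allows up to 12.1 and 20.3 CPM. In the Col1a2+ barcodes of Aged, Orm1 had 14.1 CPM and Msln 0.

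The closest barcodes for comparison were those with at least 20 keratin UMIs, at most 1 CD3 UMI and too few collagen UMIs, here keratin barcodes: 102 in WT, 17 in KO, 80 in Young and 67 in Aged. Krt8 had 2509, 1905, 1547 and 2326 CPM in the Col1a2- collagen-high barcodes and 2473, 1830, 3118 and 2740 CPM in the keratin barcodes of WT, KO, Young and Aged. The keratin minimum of the keratin barcodes bears on their Krt8 level. Col1a1 had 110, 70.2, 253 and 218 CPM in keratin barcodes, lower by the rule. Col6a1, which the rule did not use, had 49.9, 22.2, 156 and 136 CPM in keratin barcodes, below the 493, 371.5, 676 and 544.5 CPM of the Col1a2- collagen-high ones. Col1a2 had 0 CPM in the keratin barcodes of all 4 libraries. Median depth was 35474.5 UMIs against 40955 in WT, 25326 against 15535 in Young and 29199 against 27615 in Aged, and the part of depth in these differences was not tested.

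Among measured genes 4.38% of 8136 in WT, 2.96% of 7366 in Young and 1.84% of 6963 in Aged were at least 2 times higher in Col1a2- collagen-high than in keratin barcodes. At least 2 times lower were 1.6%, 3.83% and 2.83%. Of the listed fibrillar and associated collagens, 9 of 9 measured in WT, 8 of 9 in Young and 6 of 9 in Aged were higher by that fold and none were lower. The medians of their log2 ratios were 3.00, 1.89 and 1.69; Col1a1 and Col3a1 among them are set by the rule. Col6a2, which the rule did not use, led the WT list with a log2 ratio of 3.98. Of the basement membrane genes, 5 of 9 were higher in WT, 6 of 9 in Young and 1 of 9 in Aged, with medians of 1.11, 1.41 and 0.78. Collagen-processing enzymes differed less, with 4 of 17, 2 of 16 and 1 of 16 higher and medians of 0.48, 0.47 and 0.48. Bmp1, the protease that trims the procollagen tail, was higher in all 3 libraries, with log2 ratios of 1.38, 1.04 and 1.13.

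Other genes differed in the same comparison. Fbln2, a matrix glycoprotein, had 85.4 CPM in WT, 102.5 in Young and 90.3 in Aged collagen-high barcodes against 5.92, 25.5 and 43.3 in keratin barcodes. Mmp9, a gelatinase, had 226, 213 and 111 CPM against 25.6, 83.6 and 59.3. Nt5e, which makes the immunosuppressive nucleoside adenosine, had 47.5, 50.5 and 37.3 CPM against 20.4, 11.5 and 19.1. A pair of genes for contact with T cells was more than 2 times lower in Young and Aged: Icam1, the ligand of LFA-1, had 55.7 CPM in WT, 0 in Young and 2.62 in Aged against 90.6, 74 and 45.9. Ceacam1 had 19.2, 1.98 and 3.93 CPM against 52.3, 49.8 and 49.5. In Young, no collagen-high barcode had an Icam1 UMI. Of the 6 measured antigen-presenting fibroblast genes, which include MHC class II, 4 were lower in Young, with H2-Eb1 at a log2 ratio of -1.49, and 0 in WT and Aged. Tumour or epithelial markers were lower in 5 of 9 in Young, 0 of 11 in WT and 0 of 10 in Aged. Krt8, Krt18 and Krt19 among them are set by the minimum of 20 keratin UMIs that defined the keratin barcodes. In Young, 62 of 75 Col1a2- collagen-high barcodes reached that minimum, and keratin barcodes were shallower (median 15535 UMIs against 25326).

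The comparison of Aged with Young asked how collagen-high barcodes differed in tumours that received T cells of old or young donors. Aged collagen-high barcodes had more RNA of interferon response and antigen presentation genes and less RNA of cell cycle genes than Young ones. Of 7256 measured genes, 5.6% were at least 1.5 times higher in Aged and 10.2% at least 1.5 times lower, and the median log2 ratio of all of them was -0.11. Without the 4 Col1a2+ barcodes of Aged, a subset chosen after the values were seen, the shares were 4.51% and 10.3% of 7154 genes. The values below are for Col1a2- barcodes, 75 in Young and 45 in Aged, unless stated otherwise. Intervals of ratios are exact 95% intervals that cover counting error only.

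Interferon gamma signals through its receptor and the kinases JAK1 and JAK2, and switches on IRF1, guanylate-binding proteins, CXCR3 chemokines and MHC genes. Of 22 measured genes of this list, 18 were higher in Aged by 1.5 times and 0 lower, against backgrounds of 4.51% and 10.3%, with a median log2 ratio of 1.21. Over the 13 Young and 5 Aged collagen-high barcodes with fewer than 20 keratin UMIs, Col1a2+ ones included, the median was 0.089. That of the MHC class I list was 0.12 there, and fewer genes were measured. In the Col1a2- barcodes, the receptor and kinase genes were the 4 in between: Ifngr1 had a log2 ratio of -0.25, Ifngr2 of 0.27, Jak1 of 0.02 and Jak2 of -0.22. Irf1 had 60.9 and 288 CPM, a ratio of 4.73 (3.86 to 5.82). Gbp2, a GTPase of cell-autonomous defence, had 115 and 756 CPM, the largest difference of the list at 6.55 times (5.69 to 7.58).

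Single barcodes showed the same order with overlap. The median barcode had 29.7 CPM of Gbp2 in Young and 618 in Aged, and 46 of 75 Young and 41 of 45 Aged barcodes had a Gbp2 UMI. The lower quartile of Aged, 279 CPM, lay above the upper quartile of Young, 84.7 CPM. The chemokine Cxcl9, which draws CXCR3+ T cells, had 204 and 717 CPM and a UMI in 32 of 75 and 38 of 45 barcodes. Cxcl10 had 306 and 1116 CPM, but 1 Aged barcode held 22.1% of its UMIs there. Cd274, which encodes PD-L1, the ligand of the T cell checkpoint PD-1, had 12.9 and 55 CPM and a UMI in 17 of 75 and 20 of 45 barcodes, with 21.4% of the Aged UMIs in 1 barcode. Among the 13 Young and 5 Aged collagen-high barcodes with fewer than 20 keratin UMIs, Cxcl10 and Cd274 had log2 ratios of -0.066 and -1.23, but 3 of those 5 Aged barcodes were Col1a2+ and none of the Young ones were. Thinned to 3000 UMIs, 5.33% of Young (1.47 to 13.1) and 22.2% of Aged barcodes (11.2 to 37.1) had a Cd274 UMI.

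MHC class II presents peptides to CD4+ T cells and is made by professional antigen-presenting cells, and by other cells after interferon gamma. H2-Aa had 59.9 CPM in Young and 850 in Aged, a ratio of 14.2 (11.8 to 17.2). H2-Ab1 had 76.2 and 602 CPM, H2-Eb1 51 and 593 CPM, and the invariant chain Cd74 414 and 2907 CPM. The median Cd74 level was 111 CPM in Young and 3295 in Aged barcodes, and 52 of 75 and 44 of 45 had a UMI. The peptide loader genes H2-DMa and H2-DMb1 had ratios of 4.64 (3.23 to 6.81) and 2.9 (2.16 to 3.92), and H2-DMb1 had a log2 ratio of -0.81 among the same 13 Young and 5 Aged barcodes of few keratin UMIs. Ciita, the master regulator of class II genes, had a UMI in 1 of 75 and 7 of 45 barcodes. The summed level of the 16 macrophage markers was 183 CPM in Young and 154 in Aged. Of 12 dendritic cell markers, 4 were measured and all 4 were higher in Aged: H2-Aa, H2-Ab1, Cd74 and the chemokine receptor Ccr7. Ccr7 had 27.2 and 72.6 CPM, a ratio of 2.67 (1.91 to 3.76), with 23.4% of the Aged UMIs in 1 barcode. The defining dendritic markers Xcr1, Clec9a, Cd209a, Ccl22 and Itgax were at 0 in both, and Flt3 had 5.45 and 5.89 CPM. The part of dendritic cell RNA in the class II difference was not tested. In barcodes with CD3 the order was opposite, with 1843 CPM of Cd74 in Young and 412.5 in Aged.

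**Figure D3:**
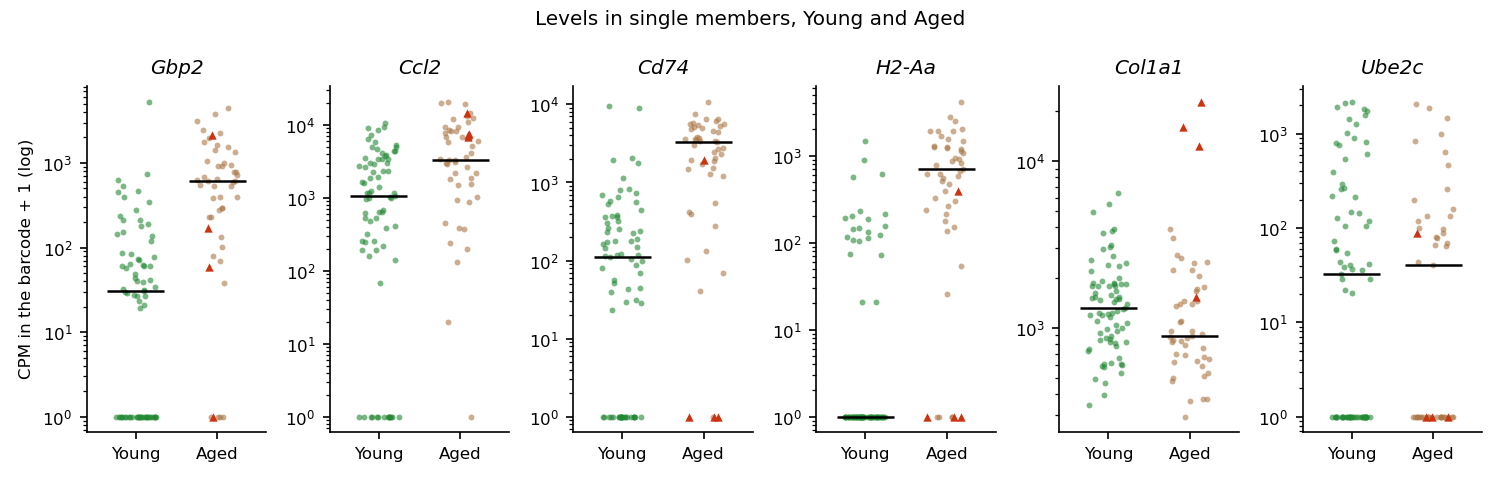
Each point is the level of 1 gene in 1 collagen-high barcode, as CPM + 1 on a log axis that differs between the 6 panels; triangles are the 4 Col1a2+ barcodes of Aged, and black lines are medians of the Col1a2- ones. Medians of Gbp2, Ccl2, Cd74 and H2-Aa are higher in Aged, and that of Col1a1 is lower.

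MHC class I presents to CD8+ T cells. Of 21 measured genes of this pathway 7 were higher in Aged and 0 lower, with a median log2 ratio of 0.50. Tap1, the peptide pump, had the ratio 1.95 (1.65 to 2.31), and Psmb9 of the immunoproteasome 1.58 (1.39 to 1.8). Nlrc5, the class I transactivator, led the list at 2.08 times (1.17 to 3.78). The chains themselves differed by less than 1.5 times: H2-K1 had 2435 and 3639 CPM, H2-D1 2913 and 3971 CPM, and B2m 1456 and 1994 CPM. Of 29 measured type I interferon response genes, many of which interferon gamma also induces, 9 were higher and 0 lower, with a median of 0.37. Rsad2, the antiviral protein viperin, led with 65.4 and 217 CPM, and Ifit1 had 54.5 and 144 CPM.

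Cell cycle genes were lower. Of 25 measured S, G2 and M phase genes 16 were at least 1.5 times lower in Aged and 0 higher, with a median log2 ratio of -0.72. Tyms, which makes thymidylate for DNA synthesis, had 101 CPM in Young and 41.9 in Aged, and a UMI in 44 of 75 and 20 of 45 barcodes. Mcm2 of the replicative helicase had 58.9 and 25.5 CPM. Mki67, the proliferation marker Ki-67, had a ratio of 0.67 (0.55 to 0.81), with 25.9% of the Aged UMIs in 1 barcode. Over the 18 Young and 14 Aged collagen-high barcodes with at least 50 collagen UMIs, Col1a2+ ones included, the log2 ratio of Mki67 was 0.56, and over the 13 Young and 5 Aged barcodes of few keratin UMIs that of Tyms was 0.022. Thinned to 3000 UMIs, 22.7% of Young (13.8 to 33.8) and 20% of Aged barcodes (9.58 to 34.6) had an Mki67 UMI, so a difference in the share of barcodes was not detectable.

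Keratin barcodes of the same libraries gave a side value, from other barcodes of the same 2 pools of tumours. In them 5.4% of 7172 genes were at least 1.5 times higher in Aged and 8.69% lower. Interferon gamma response genes were higher in 10 of 21 and lower in 0, with a median of 0.56. MHC class I genes were higher in 6 of 21, with a median of 0.38, and S, G2 and M phase genes lower in 6 of 25, with a median of -0.39. Gbp2 had 170 and 335 CPM and Cd74 898 and 2100 CPM in Young and Aged keratin barcodes. Whether the collagen-high barcodes differed more than the keratin barcodes was not tested. Ifng, the gene of the ligand, had 219.8 CPM in Young and 308 in Aged barcodes with CD3, and 0 in the collagen-high barcodes of both. Its part in the differences was not tested.

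**Figure D4:**
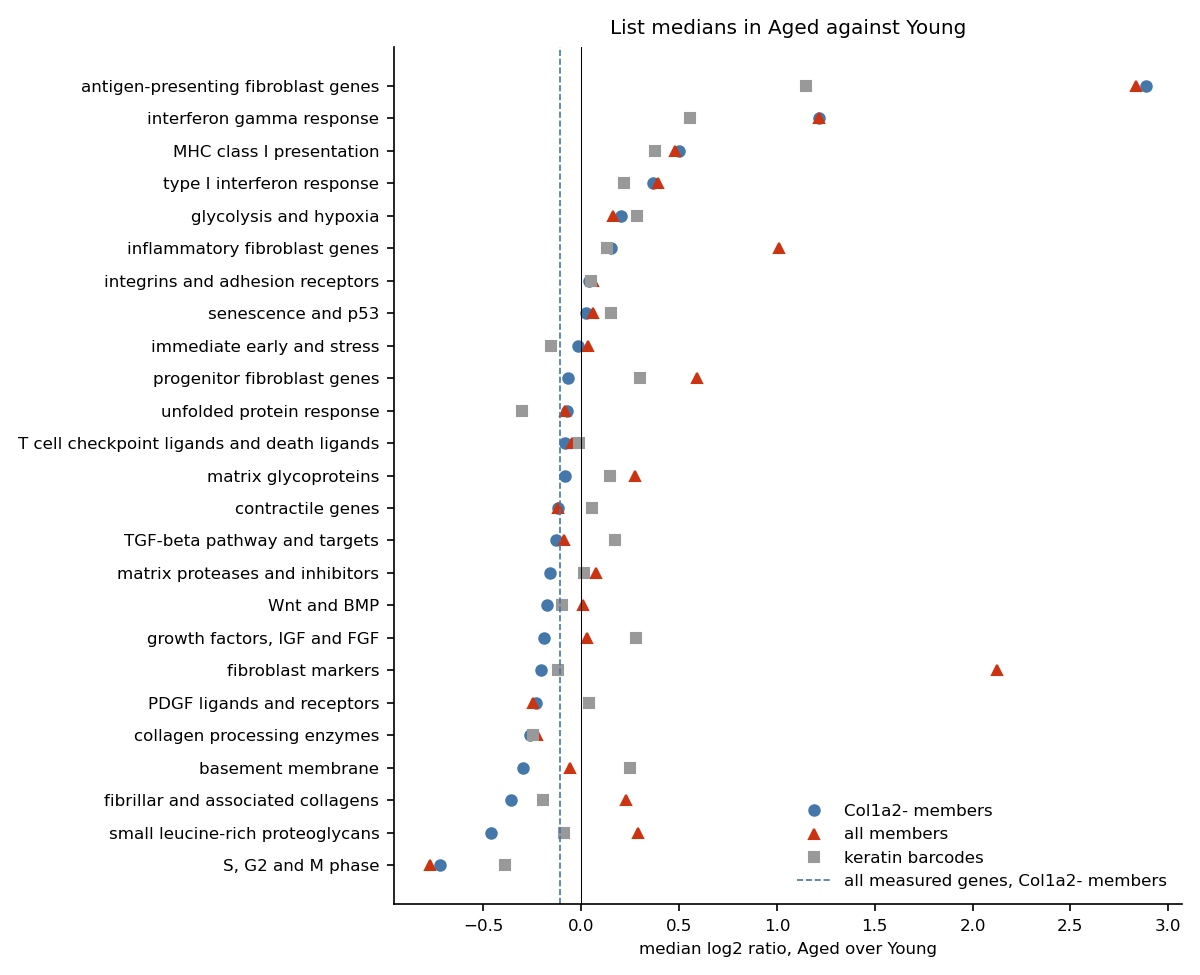
Points give the median log2 ratio, Aged over Young, of each gene list (x axis) in Col1a2- collagen-high barcodes, all collagen-high barcodes and keratin barcodes; the dashed line is the median of all measured genes, at -0.11. Antigen presentation and interferon lists lie to the right and the cell cycle list to the left in all 3, while fibroblast markers move from -0.21 to 2.13 once the 4 Col1a2+ barcodes are included.

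Most measured keratin and junction genes were higher in Aged as well. Of 10 measured tumour or epithelial markers 8 were higher and 0 lower in the Col1a2- barcodes, with a median log2 ratio of 1.03. Over all measured genes 4.51% were higher and 10.3% lower. The junction gene Cldn4 was not among the 8, at a ratio of 0.90 (0.63 to 1.28) and a UMI in 2 of 75 and 2 of 45 barcodes. In keratin barcodes 1 of 9 was higher and 1 lower, with a median of -0.19. Keratin barcodes were chosen by their Krt8, Krt18 and Krt19 UMIs, so the levels of these genes there describe the choice. Epcam, among the 8, had a UMI in 0 of 75 Young and 2 of 45 Aged Col1a2- barcodes, with 75.5% of the Aged UMIs in 1. Krt8 had 1547 CPM in Young and 2326 in Aged, a ratio just past the fold used (interval 1.43 to 1.58), and Krt7 had 158 and 323 CPM. Krt19 had 196 and 530 CPM, with 42.5% of the Aged UMIs in 1 barcode, and Dsp, which encodes desmoplakin of cell junctions, had 11.4 and 58.9 CPM. The summed list was 3722 CPM in Young and 5812 in Aged, with Krt5, Krt20 and 4 uroplakin genes at 0 in both. The part of this difference in the other differences between Aged and Young was not tested.

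Most matrix genes differed by less than 1.5 times, and those past it were mostly lower in Aged. The rule held Col1a1 and Col3a1 to a fixed number of UMIs, and Aged Col1a2- barcodes were deeper (median 29199 UMIs against 25326), so their levels are a description. Col1a1 had 1316 CPM in Young and 984 in Aged, a ratio of 0.75 (0.70 to 0.80), and Col3a1 had 271 and 146 CPM, a ratio of 0.54 (0.46 to 0.63). Of 10 measured fibrillar and associated collagens, 2 were lower by 1.5 times, Col3a1 and Col6a2, and 0 higher, with a median log2 ratio of -0.36. Col6a2 had 640 and 393 CPM, a ratio of 0.61 (0.56 to 0.68). Fn1 had 859 and 922 CPM. Of 17 collagen-processing enzymes 3 were lower, namely the collagen chaperones Serpinh1 and Fkbp10 and the lysyl hydroxylase Plod2, with log2 ratios of -0.67, -1.31 and -0.70. These shares are to be read against the 10.3% of all measured genes that were lower. Of 13 measured matrix proteases and inhibitors 1 was higher and 3 lower. Mmp10 was higher, at 10.9 and 50.4 CPM, with 55.8% of the Aged UMIs in 1 barcode. Mmp9, Mmp3 and Serpinf1 were lower, with ratios of 0.52 (0.43 to 0.63), 0.58 (0.46 to 0.72) and 0.40 (0.27 to 0.58). For Mmp9, 1 barcode held 24.2% of the Young UMIs. Lower too were 2 of 9 basement membrane genes, 2 of 12 matrix glycoproteins and 1 of 2 small proteoglycans, with 0 higher. Over all measured genes 4.51% were higher and 10.3% lower. With all collagen-high barcodes, fibroblast markers were higher in 9 of 14 with a median of 2.13, and without the 4 Col1a2+ barcodes in 0 of 6 with a median of -0.21. Col1a2 itself, at 0.495 and 321.5 CPM over all collagen-high barcodes, and Col3a1, at 271 and 667 CPM, were higher in Aged only through those 4.

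Secreted signals to leukocytes were mixed. Ccl2, which recruits monocytes, had 2463 CPM in Young and 5245 in Aged, and the median barcode had 1055 and 3286 CPM. Ccl7, a related chemokine, had 1349 and 2498 CPM. Il33, an alarmin, had a log2 ratio of -0.87 and Ptgs2, which makes prostaglandins, of -0.81. Of 12 measured genes of the inflammatory fibroblast list 4 were higher and 2 lower, with a median of 0.15. Nos2, which makes nitric oxide, had 71.3 and 195 CPM. Of 11 measured checkpoint and death ligand genes 3 were higher, Cd274, Nos2 and Lgals3, and 1 lower, Hmgb1. Both counts stand beside 4.51% higher and 10.3% lower over all measured genes, and the numbers of lower genes are near that share.

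The genes with the smallest ratios among those eligible to be named were Nt5dc2, Nr4a2, Csmd1, Ecrg4, Hes1, Serpinf1, Tyms, Kif26b, Mcm2 and Haus4. Over the 13 Young and 5 Aged barcodes of few keratin UMIs, Nt5dc2 and Csmd1 turned to log2 ratios of 0.28 and 0.16. Nr4a2, an immediate early transcription factor, had 107 CPM in Young and 36 in Aged, and Hes1, a Notch target, had 60.4 and 23.6 CPM. Ecrg4 had 493 and 190.5 CPM and a UMI in 56 of 75 and 29 of 45 barcodes. Values that rest on 1 barcode are not differences between the groups: 93.9% of the 49 Ccn2 UMIs in Young and 75.5% of the Aged Epcam UMIs came from 1 barcode each. Glycolysis and hypoxia genes were higher in 3 of 25, TGF-beta pathway genes lower in 3 of 22, and unfolded protein response genes higher in 2 and lower in 1 of 21, with medians of 0.20, -0.13 and -0.07. Ccn2 was 1 of those 3 TGF-beta pathway genes. Over all measured genes 4.51% were higher and 10.3% lower, so these counts are not read as differences of the lists.

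KO had 8 Col1a2- barcodes and WT 50, too few for a count of genes, so levels stand side by side. Bfar, whose UMIs need not come from the deleted part of the gene, had 32.1 CPM in WT and 22.3 in KO barcodes with CD3, and 28.3 and 26.5 CPM in the Col1a2- barcodes. Cd74 had 303 CPM in WT (exact Poisson interval 281 to 327) and 597 in KO (522 to 680.3), and Gbp2 had 79.9 and 103.5 CPM. Ccl2 had 2892 and 2698 CPM, and Fn1 792 and 868 CPM. In keratin barcodes Cd74 had 582 CPM in WT and 1966 in KO. Whether KO and WT differed beyond what 8 barcodes can vary was not tested.

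The 124 collagen-high barcodes of Young and Aged fell into 5 clusters. Cluster 1, with 37 barcodes, was led by matrix and interferon genes, among them Dcn, Gbp2, H2-Aa and the acute phase gene Orm2. Cluster 2, with 25, was led by Ltbp2, Nr4a2, Egr2 and Thbs1. Cluster 3, with 9, was led by the replication genes Pclaf, Mcm7 and Mcm3, and cluster 4, with 31, by the mitotic genes Cenpe, Plk1 and Cenpf. Cluster 5, with 22, was led by hypoxia and glycolysis genes such as Adm, Bnip3, Pgk1 and Slc2a1. Summed glycolysis and hypoxia genes were 35793 CPM in cluster 5 and 13559 to 20074 in the others. Of the 4 Col1a2+ barcodes, 3 fell in cluster 1 and 1 in cluster 2, and median keratin UMIs were 32, 87, 127, 85 and 124.5 in clusters 1 to 5. The clusters come from the same genes, so this is a description. Their sizes were not tested between libraries, because leading genes of clusters 1, 2 and 3 differed between Aged and Young. Clusters 1 to 5 held 14, 20, 9, 19 and 13 Young and 23, 5, 0, 12 and 9 Aged barcodes. For cluster 3, the count of 0 in Aged allows a share of up to 7.25%. The differences between Aged and Young above pool barcodes of all clusters. Differences between Aged and Young within 1 cluster were not tested.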

How the data were processed

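The files hold UMI counts per gene and barcode, deposited as filtered matrices of 31253 genes made with Cell Ranger 6.1.1 (WT, KO) and 7.1.0 (Young, Aged) per the file headers. Tools listed in the submitters' processing notes are Seurat 3.2.3 and Cell Ranger 6.0.0, with mm10 as the genome. The labels give a 3' kit for WT and KO and an immune profiling kit for Young and Aged. Total counts were 85401443, 72752583, 68017515 and 70727987 UMIs in WT, KO, Young and Aged.

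Members, gene lists and comparisons were chosen with earlier results of these data known. UMIs were summed per library and class and scaled to CPM. Log2 ratios carry a pseudocount of 1 CPM. Exact 95% intervals (Poisson for levels, conditional binomial for ratios, Clopper-Pearson for shares) cover counting error only. With 1 library per group no test was made, and calls mean a fold of 4 against other kept barcodes, 2 against keratin barcodes and 1.5 between Aged and Young. Genes were named as the 20 highest over other kept barcodes in Young and Aged (at least 100 CPM), the 10 largest and 10 smallest ratios between Aged and Young (at least 50 CPM in 1 pool, at least 100 UMIs, at most 20% of the UMIs from 1 barcode in the pool where the gene is higher, without receptor segments, mitochondrial, ribosomal, haemoglobin and sex-linked genes, unnamed models and markers of other cell types), and members and extremes of the lists. Other genes were named after their values were seen. Of 618 list symbols 614 were in the files. For shares of barcodes, each was thinned to 3000 UMIs. Young and Aged barcodes were clustered with Leiden (scanpy 1.11.5, igraph 0.11.9). Other steps used Python 3.11.15, numpy 2.4.6, scipy 1.17.1 and pandas 2.3.3. The ratio intervals were tested on simulated Poisson pools. Those pools hold no spread between barcodes, so the test does not cover genes whose UMIs gather in 1 barcode. No doublet caller was run, and leaving out the deepest 8% of barcodes, or those with Ptprc, were among the alternatives. A table of proteins was not used here.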

Additional observations from a re-analysis of the deposited data

How the results depend on the processing

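The number of collagen-high barcodes followed the thresholds: a minimum of 10 collagen UMIs gave 82 in WT, 101 in Young and 78 in Aged, and a minimum of 50 gave 27, 6, 18 and 14 in WT, KO, Young and Aged. Allowing 0 CD3 UMIs gave 42 in WT, and no CD3 limit gave 115, 25 and 96 in WT, KO and Young. Between Aged and Young, genes higher changed from 406 to 143 without barcodes of 20 or more keratin UMIs (13 Young and 5 Aged left, 751 genes measured) and to 2830 with no filter on low counts. Genes lower changed from 742 to 200, to 3980 with no filter and to 474 with median-of-ratios size factors. With a collagen minimum of 50, 11 interferon gamma, 3 MHC class I and 3 type I interferon genes were higher, and without barcodes of 20 or more keratin UMIs 3, 2 and 2, where fewer genes were measured. MHC class I genes numbered 11 with median-of-ratios size factors and type I interferon genes 16 with mean per-barcode CPM; the cause was not tested. Fibroblast markers higher numbered 15 with no filter and 0 without the Col1a2+ barcodes, a setting added after seeing the data, which turned the medians of fibroblast markers to -0.21 and progenitor genes to -0.066, Col1a2 to -0.58 and Col3a1 to -0.89. Without barcodes of 20 or more keratin UMIs, log2 ratios turned to -1.23 for Cd274, 0.16 for Csmd1, -0.066 for Cxcl10, -1.52 for Gbp5, -0.81 for H2-DMb1, 0.28 for Nt5dc2 and 0.022 for Tyms, and with a collagen minimum of 50 to 0.56 for Mki67. List medians stayed within their limits in 274 of 299 values and single genes in 375 of 432. For single genes, leaving out the filter on low counts could not change a value. Median-of-ratios size factors shifted all genes alike, moving the median of all measured genes from -0.11 to 0. Such agreements were fixed in advance. The limit of 5% mitochondrial UMIs left 49 Aged and 74 Young barcodes, nearly the main set. These counts are therefore no measure of robustness. No paired analysis was possible because each group is 1 library. With 8 Col1a2- barcodes, KO allows no level under 7.96 CPM to be told from 0.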
